A study of Drosophila melanogaster with 4 samples.

Results

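The nuclear genes of the respiratory chain and ATP synthase were examined in ovaries of Drosophila melanogaster, in RNA recovered with an antibody against pseudouridine and in the RNA from which it was recovered. Genes were taken by FlyBase symbol: ND- for subunits of complex I, UQCR- for complex III, COX followed by a digit for complex IV, and ATPsyn for ATP synthase, complex V. Genes of the mitochondrial genome were left out. The rule found 80 genes of 17023 listed, 40 for complex I, 9 for complex III, 16 for complex IV and 15 for complex V. Of these, 59 carry a plain subunit symbol and 21 carry a symbol with the suffix L (L1 or L2 where there are several), which marks a paralogue of a subunit gene. The pulldown group was 2 libraries made with a mouse anti-pseudouridine antibody, and the input group was 2 libraries made without antibody from a portion of the same kind of homogenate; each group held replicates numbered 1 and 3. All 4 libraries came from ovaries labelled WT, no transgene or treatment was named in the labels, and poly(A) RNA was selected before sequencing. For its staging work, the study took WT ovaries from fattened females aged 2 to 3 days that carried UAS-Dcr2 and nosGAL4. Its account of the pulldown names no genotype or age. Mock pulldowns with IgG were not analysed here, so RNA bound by beads or by any antibody could not be subtracted. Nothing in the labels says that the numbered replicates were separate cultures or animals, so tests measure the spread between these libraries, which may be technical.

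The respiratory chain sits in the inner mitochondrial membrane. Complex I takes electrons from NADH, complex III passes them from ubiquinol to cytochrome c, complex IV hands them to oxygen, and ATP synthase uses the resulting proton gradient to make ATP. Most subunits are encoded in the nucleus, translated in the cytosol and imported, and oocytes inherit the whole mitochondrial population of the next generation from the ovary. Roles given below for single subunits are those of the human and bovine enzymes unless stated. The comparison asks whether transcripts of these genes made up more, or less, of the poly(A) RNA recovered with the antibody than of the input RNA.

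Libraries held 984979 and 6338436 counts in pulldowns 1 and 3, against 4245717 and 12684875 in inputs 1 and 3. Levels are given as CPM, counts scaled to a common library total. With 3 counts as the floor, pulldown 1, the shallowest library, could show a gene only from 3.05 CPM upward, against 0.237 CPM in input 3. Across all genes tested, log2 CPM correlated at r = 0.62 between the pulldowns and 0.84 between the inputs, and at 0.75 and 0.87 between pulldown and input of replicates 1 and 3. Of the 7 follicle cell markers, all were present, and their summed level was 119000 and 18250 CPM in pulldowns 1 and 3, against 40330 and 11950 CPM in inputs 1 and 3. Yolk protein and vitelline membrane genes carried that sum, and the follicle cell factor tj had 166.5 and 163.6 CPM in the pulldowns against 99.16 and 205.5 CPM in the inputs, and Fas3 19.29 and 30.29 CPM against 20.26 and 39.73 CPM. The 4 germline markers found in the files summed to 1396 and 1701 CPM, against 1826 and 2611 CPM. The 5 muscle sheath markers found summed to 198 and 259.1 CPM in the pulldowns against 126 and 335.1 CPM in the inputs. Their directions were mixed: Mlc2 had 14.21 and 75.41 CPM in the pulldowns against 75.13 and 114.6 CPM in the inputs, and Mhc 77.16 and 87.25 CPM against 10.13 and 89.63 CPM. The median fitted log2 fold change of pulldown over input was 1.68 for the follicle cell markers, 0.64 for muscle sheath and -0.53 for germline. Of 9 testis markers, 7 had no read in any library. These marker sums differ between the libraries that are compared below, and their part in the results was not tested. In bulk ovary RNA, fewer cells of a type and less RNA per cell cannot be told apart. Ratios were computed on library sizes scaled by trimmed mean of M-values (TMM), which places the ratios of replicate 1 (pair 1, pulldown 1 over input 1) 0.40 higher on the log2 scale than total counts would, and those of replicate 3 (pair 3) 0.06 higher.

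Reads were found in all 4 libraries for 56 of the 80 genes, and the same 56 passed the filter on low counts and were tested: 32 of complex I, 5 of complex III, 8 of complex IV and 11 of complex V. Per kilobase of exon, their median level was 105.3 and 162.1 CPM in pulldowns 1 and 3, against 107.8 and 103.4 CPM in inputs 1 and 3. In input 3 the range ran over more than 100-fold, between 12.91 and 1544 CPM per kilobase. Complex I genes had the lowest levels, with medians of 74.29 and 110.4 CPM per kilobase in the pulldowns against 59.88 and 80.09 in the inputs. Complex III medians were 118.3 and 167.8 CPM per kilobase in the pulldowns, against 126.3 and 110.6 in the inputs. Complex IV medians were 227.7 and 441.8 CPM per kilobase in the pulldowns against 352.9 and 270.5 in the inputs, and complex V medians were 326.9 and 410.9 against 353.1 and 267.4. Complexes IV and V thus stood above complexes I and III in every library.

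**Figure D1:**
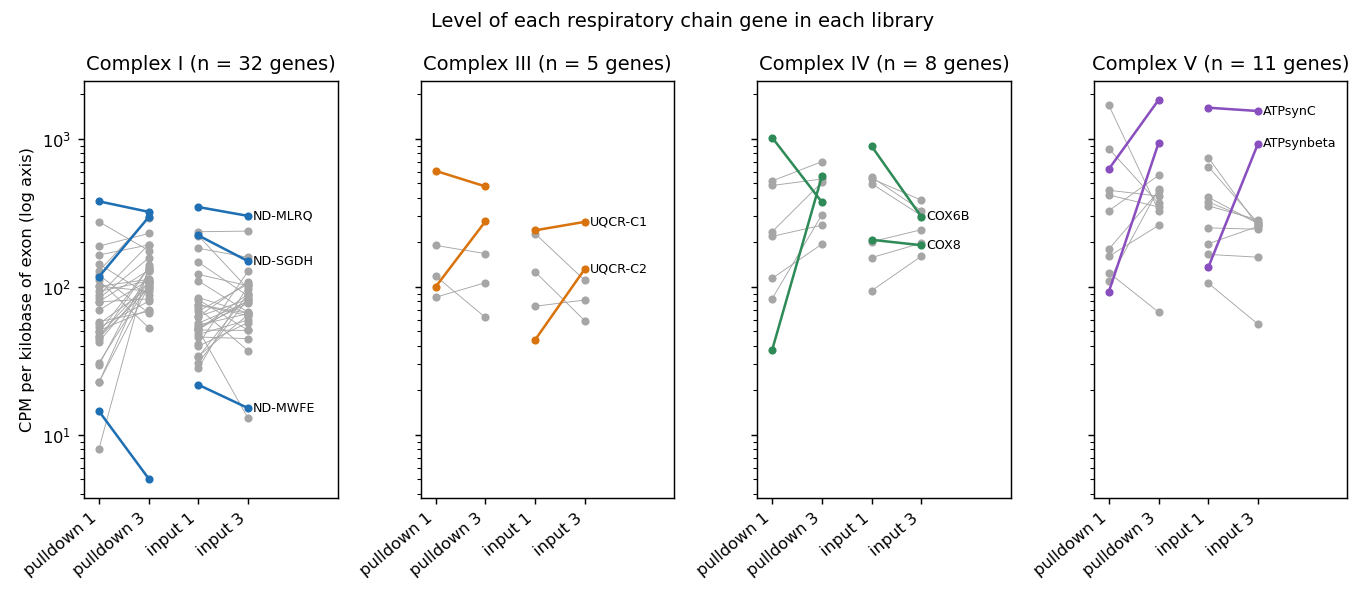
Level of each of the 56 tested genes in CPM per kilobase of exon (vertical log axis) in pulldowns 1 and 3 and inputs 1 and 3 (horizontal axis), 1 panel per complex; each point is 1 gene in 1 library, lines join the libraries of a group, and coloured genes are named. ATPsynC reached 1834 CPM per kilobase in pulldown 3, while ND-MWFE was at or below 21.77 in all 4 libraries.

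Nearly all reads of the family came from the main subunit genes and hardly any from the paralogues. Of the 21 L-suffixed genes, 13 had no read in any library, none had a read in pulldown 1, and no more than 7 reads were seen for any of them in an input. COX4L, with 7 reads in input 3 (0.552 CPM), COX7AL2, with 3 reads in input 1 and 2 in input 3, and UQCR-11L were the best covered. By contrast COX4 was at 270.1 and 321.4 CPM in the pulldowns and 194.1 and 242.9 CPM in the inputs, and COX7A was at 164.5 and 355.6 CPM against 346.9 and 211.4 CPM. UQCR-11L stood apart: it had 65 reads in pulldown 3 and none in pulldown 1 or either input, against 190.9 and 100.3 CPM in the pulldowns and 203.7 and 95.31 CPM in the inputs for UQCR-11. UQCR-11L lies within the span of Acsl on the same strand, and Acsl had 82 and 1802 reads in the pulldowns and 742 and 4735 in the inputs. UQCR-11L was too unevenly covered to be tested.

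The other paralogues with a read had 1 or 2 reads, all in input 3: ND-49L, UQCR-6.4L, COX6AL, COX7AL and ATPsynepsilonL. Their counterparts were covered in every library, among them levy, the COX6A gene beside COX6AL and COX6AL2, with 316 and 1350 reads in the pulldowns and 962 and 2038 in the inputs. The counterpart of ATPsynepsilonL is sun, which had 181 and 814 reads in the pulldowns and 813 and 1374 in the inputs. For COX6CL, at 0 throughout, the counterpart cype had 135 and 1080 reads in the pulldowns and 657 and 979 in the inputs. COX6AL2 also had no read, and another gene covers 67.0% of its exon bases. No read at all was counted for ND-20L, ND-24L, ND-51L1, ND-51L2, ND-B14.5AL, UQCR-14L, COX5BL, COX7CL, ATPsynCF6L, ATPsynGL or ATPsynbetaL. ND-20, ND-24, ND-51, ND-B14.5A, COX5B, COX7C, ATPsynCF6, ATPsynG and ATPsynbeta were all read in every library. All 647 exon bases of COX5BL lie in Trmt6 on the opposite strand. In the deepest library, a count of 0 allows up to 0.237 CPM.

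The main subunit genes ND-MNLL, ND-B8 and UQCR-14, also had a count of 0 in all 4 libraries, which is not the same as absence. All 720 exon bases of ND-MNLL, an accessory subunit of the complex I membrane arm, are shared with CG45089 on the same strand, and CG45089 was itself at 0 throughout. All 523 exon bases of UQCR-14, an accessory subunit of complex III, are shared with CG32576 on the opposite strand, which had 30 and 359 reads in the pulldowns and 181 and 221 in the inputs. ND-B8, an accessory subunit of complex I, shares only 71 bases, 15.4% of its exons, with Gs1l. Across protein-coding genes, 94.5% of the 366 whose exon bases all lie in another gene had no read in any library, against 34.6% of the 9140 that share none. Of the 4142 that share some but not all exon bases, as ND-B8 does, 14.15% had no read. The counting program discards reads that fall on more than 1 gene unless told otherwise; which setting was used, and whether strand was used, is not given in the sources used here. Among the 56 genes tested, 7 share at least 15% of their exon bases with another gene, and their counts carry that uncertainty.

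No gene was called between pulldown and input. With edgeR's quasi-likelihood test and Benjamini-Hochberg adjustment over 7085 genes, 0% of all genes were called higher and 0% lower at an adjusted p under 0.05 and 2-fold, and the members called numbered 0. The smallest adjusted p was 0.9999, for the members and for all genes; 146 genes, and 0 of the 56, had an unadjusted p under 0.05. The spread between replicates was wide, with a common dispersion of 0.539, that is a biological coefficient of variation of 0.734. All directions and sizes that follow describe these 4 libraries and did not pass a test.

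The transcripts of the respiratory chain lay mostly on the pulldown side. The fitted log2 fold change of pulldown over input was above 0 for 48 of the 56 genes (85.7%), against 46.2% of all genes tested, and its median was 0.55 against -0.07 for all genes. Values ran between -0.58 for ND-MWFE and 1.54 for ATPsynCF6. Within the pairs, the median log2 ratio was 0.38 in pair 1 and 0.59 in pair 3, where the medians of all genes tested were -0.31 and -0.06. On total counts instead of TMM the members' median was -0.03 in pair 1 and 0.53 in pair 3, against -0.70 and -0.12 for all genes. The sign in pair 1 thus depended on the scale. A change of scale shifts all ratios of a pair nearly alike, so it could hardly change the distance between the members and all genes.

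Where the pairs had the same direction, it was mostly up for these genes and mostly down for the background. Both pairs were above 0 for 35 of 56 genes (62.5%), where 20.5% of all genes tested were, and both were below 0 for 2 (3.57%), ND-MWFE and COX5B, where 33.1% of all genes were. On total counts, 25 of 56 (44.6%) were above 0 in both pairs, against 14.0% of all genes, and 3 (5.36%) were below in both, against 40.6% of all genes. At least 2-fold higher in both pairs were 2 genes, ND-SGDH and UQCR-C2, 3.57% against a background of 1.61%; at least 2-fold lower in both pairs was none, against a background of 6.41%. Both pulldowns lay above both inputs for 18 genes (32.1%, background 10.2%), and both lay below for 1, COX5B (1.79%, background 17.2%). On total counts both pulldowns lay above for 13 of the 56 (background 6.17%), and with upper-quartile scaling for 20 (background 11.9%). The ratio of a gene in one pair said little of its ratio in the other: across the 56 genes r was -0.06 and rho -0.03, as a description of genes that share the same 4 libraries.

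**Figure D2:**
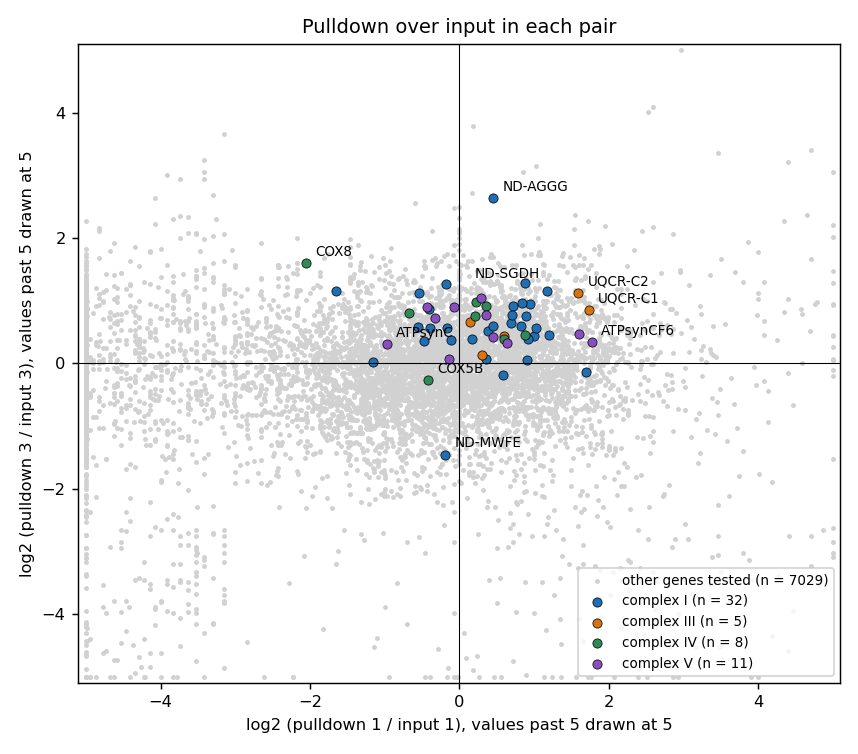
Log2 ratio of pulldown 1 over input 1 (horizontal axis) and of pulldown 3 over input 3 (vertical axis), TMM-scaled, for the 56 genes coloured by complex and for the 7029 other genes tested in grey; each point is 1 gene. The upper right quadrant holds 35 of the 56, and the lower left holds ND-MWFE and COX5B.

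Complex I, with 32 genes tested, had a median fitted log2 fold change of 0.63, and medians of 0.52 in pair 1 and 0.58 in pair 3. The fitted value was above 0 for 28 of its genes and below for 4. ND-SGDH, an accessory subunit of the membrane arm, had 336.0 and 285.4 CPM in the pulldowns, against 197.6 and 132.4 CPM in the inputs. Both pulldowns were above both inputs, and the log2 ratios of the pairs were 1.17 and 1.16 (fitted 1.17 ± 0.69, SE; edgeR adjusted p = 0.9999). ND-MWFE, an accessory subunit needed for assembly, had the lowest mean level of the tested genes per length in the inputs, and it had 12.18 and 4.26 CPM in the pulldowns, against 18.37 and 12.77 CPM in the inputs. In pulldown 1 that was 12 reads; both pulldowns were narrowly below both inputs in plain CPM and overlapped them on the TMM scale, and the fitted value was -0.58 ± 1.51; another gene covers 35.0% of its exon bases.

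ND-MLRQ and ND-ACP, the most abundant complex I transcripts per length in the inputs, did not share the lean of the group. ND-MLRQ, whose mammalian counterpart is now assigned to complex IV, had 117.0 and 296.5 CPM per kilobase in the pulldowns against 346.3 and 301.7 in the inputs. Pulldown 1 was the low library and pulldown 3 matched the inputs, giving log2 ratios of -1.16 and 0.03. ND-ACP, the mitochondrial acyl carrier protein, had 127.8 and 292.3 CPM per kilobase in the pulldowns against 235.8 and 238.2 in the inputs, with log2 ratios of -0.48 and 0.35. The groups overlapped for both genes. ND-SGDH and ND-PDSW, next in level with 222.5 and 149.1, and 182.2 and 158.2 CPM per kilobase in the inputs, had fitted values of 1.17 and 0.51.

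The 7 subunits ND-75, ND-51, ND-49, ND-30, ND-24, ND-23 and ND-20 are the conserved nuclear core of complex I. They are set out here after their values were seen. All 7 had a fitted log2 fold change above 0, between 0.21 for ND-75 and 1.10 for ND-23, with a median of 0.68, against a median of 0.56 for the 25 accessory genes. In pair 1 the core median was 0.92 and the accessory median 0.39, while in pair 3 the order turned, with 0.43 and 0.60. ND-23, an iron-sulphur subunit, had 72.08 and 158.2 CPM in the pulldowns against 51.58 and 67.48 CPM in the inputs, without overlap. ND-49, part of the ubiquinone site, had 160.4 and 178.9 CPM in the pulldowns against 65.24 and 203.5 CPM in the inputs, so that its pulldown was high only beside input 1.

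Every tested gene of complex III, 5 of 5, was above 0 in both pairs on the TMM scale, and 3 of 5 were on total counts. UQCR-C1, a core subunit, had 992.9 and 779.5 CPM in the pulldowns against 393.3 and 448.8 CPM in the inputs, with log2 ratios of 1.74 and 0.85 and a fitted value of 1.39 ± 0.72. UQCR-C2, the other core subunit, had 168.5 and 466.7 CPM in the pulldowns against 73.72 and 222.4 CPM in the inputs. Its level in plain CPM followed the replicate number, and the pulldown was higher within each pair, by log2 ratios of 1.59 and 1.12 (fitted 1.29 ± 0.68). The small subunits moved less. UQCR-Q had 185.8 and 163.6 CPM in the pulldowns against 223.3 and 107.8 CPM in the inputs, with overlap. UQCR-11 had 190.9 and 100.3 CPM against 203.7 and 95.31 CPM, again with overlap, and a fitted value of 0.26 ± 0.80. As a share of all counts, the complex took 0.159% and 0.158% in the pulldowns against 0.0936% and 0.0920% in the inputs. UQCR-C1 alone held 978 of 1562 and 4941 of 10016 of these counts in the pulldowns, against 1670 of 3972 and 5693 of 11673 in the inputs. UQCR-C2 held 166 and 2958, against 313 and 2821. The separation of the shares thus rested mostly on these core subunits, while UQCR-Q and UQCR-11 overlapped between the groups. The shares of the other complexes overlapped between the groups, with 0.262% and 0.403% in the pulldowns against 0.246% and 0.283% in the inputs for complex I. Complex IV took 0.203% and 0.245% against 0.224% and 0.155%, and complex V took 0.560% and 0.864% against 0.642% and 0.707%.

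Complex IV had a median fitted log2 fold change of 0.52 over 8 genes, with medians of 0.22 in pair 1 and 0.78 in pair 3. COX7C, a small membrane subunit, had 71.07 and 261.9 CPM in the pulldowns against 80.32 and 137.4 CPM in the inputs; pulldown 3 was the high library and the groups overlapped. The fitted value of COX7C was 0.71 ± 0.66. COX5B, a zinc-binding subunit, had 83.25 and 141.8 CPM in the pulldowns against 147.2 and 177.4 CPM in the inputs, both pulldowns below both inputs, and a fitted value of -0.34 ± 0.59. The abundant COX5A had 520.4 and 702.2 CPM per kilobase in the pulldowns against 538.2 and 385.5 in the inputs, so that pulldown 1 lay between the inputs in plain CPM per kilobase and above both on the TMM scale. COX6B, at the intermembrane face, had 1020 and 373.5 CPM per kilobase in the pulldowns against 892.6 and 297.6 in the inputs: the level went with the replicate number, and within the pairs its log2 ratios were 0.60 and 0.38. COX8, chosen after its values were seen, had 19.29 and 288.1 CPM in the pulldowns against 106.7 and 98.07 CPM in the inputs, with log2 ratios of -2.05 and 1.61 in opposite directions. ND-15, a small complex I subunit chosen likewise, had 9.137 and 159.0 CPM in the pulldowns against 38.63 and 73.63 CPM in the inputs, with the same turn.

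Complex V had a median fitted log2 fold change of 0.44 over 11 genes, with medians of 0.29 in pair 1 and 0.47 in pair 3. ATPsynCF6, a part of the peripheral stalk, had the highest fitted value of all 56 genes. It had 1188 and 230.7 CPM in the pulldowns against 457.6 and 189.9 CPM in the inputs, so the value rested on pulldown 1, and the log2 ratios were 1.78 and 0.33 (fitted 1.54 ± 1.07). ATPsyngamma, the central shaft, chosen after its values were seen, had the same shape, with 1256 and 534.8 CPM in the pulldowns against 546.4 and 400.9 CPM in the inputs. ATPsynC, the proton-carrying ring subunit and the highest of all members per length in both inputs and in pulldown 3, had 625.6 and 1834 CPM per kilobase in the pulldowns against 1626 and 1544 in the inputs. Pulldown 1 was the low library, in which ATPsynCF6, COX6B and ATPsyngamma stood above ATPsynC per length. The log2 ratios were -0.97 and 0.30, and the fitted value was -0.30 ± 0.87, the lowest of the complex. ATPsynbeta, the catalytic subunit, had 221.3 and 2239 CPM in the pulldowns against 322.9 and 2215 CPM in the inputs: both replicate 1 libraries were low, both replicate 3 libraries were high, and the log2 ratios were -0.14 and 0.07.

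Summed over all members, the genes took 1.18% and 1.67% of counts in the pulldowns, against 1.20% and 1.24% in the inputs. The mean share was 1.43 ± 0.344% in pulldowns and 1.22 ± 0.0228% in inputs (SD, n = 2 each), and the difference of 0.206 percentage points gave an exact permutation p = 1 (two-sided, where the smallest p possible with 2 against 2 is 0.333). Counting error was small beside this, with 95% Wilson intervals of 1.16% to 1.21% for pulldown 1 and 1.66% to 1.68% for pulldown 3. ATPsynC alone took 0.117% and 0.343% of counts in the pulldowns against 0.304% and 0.288% in the inputs. Without the 10 most abundant genes of each library, the members took 1.77% and 1.79% in the pulldowns against 1.39% and 1.32% in the inputs, and these groups did not overlap. Without ATPsynC, a choice made after its values were seen, the members took 1.07% and 1.33% in the pulldowns against 0.901% and 0.949% in the inputs, also without overlap. Intervals and floors cover counting error only, since reads without molecular identifiers are not independent molecules.

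Genes of like abundance were used as a yardstick, by subtracting for each member the median ratio of the 200 tested genes nearest to it in mean log2 CPM of the inputs. The median difference was 0.62 in pair 1, where 42 of the 56 genes were above their like genes, and 0.75 in pair 3, where 53 were. Above in both pairs were 40 genes, and below in both was 1, COX5B. Complex III had median differences of 0.89 and 0.85 in pairs 1 and 3 with all 5 genes above in both, and complex I had 0.87 and 0.66 with 23 of 32 above in both. Complex IV had 0.46 and 0.99 with 5 of 8, and complex V had 0.47 and 0.80 with 7 of 11.

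**Figure D3:**
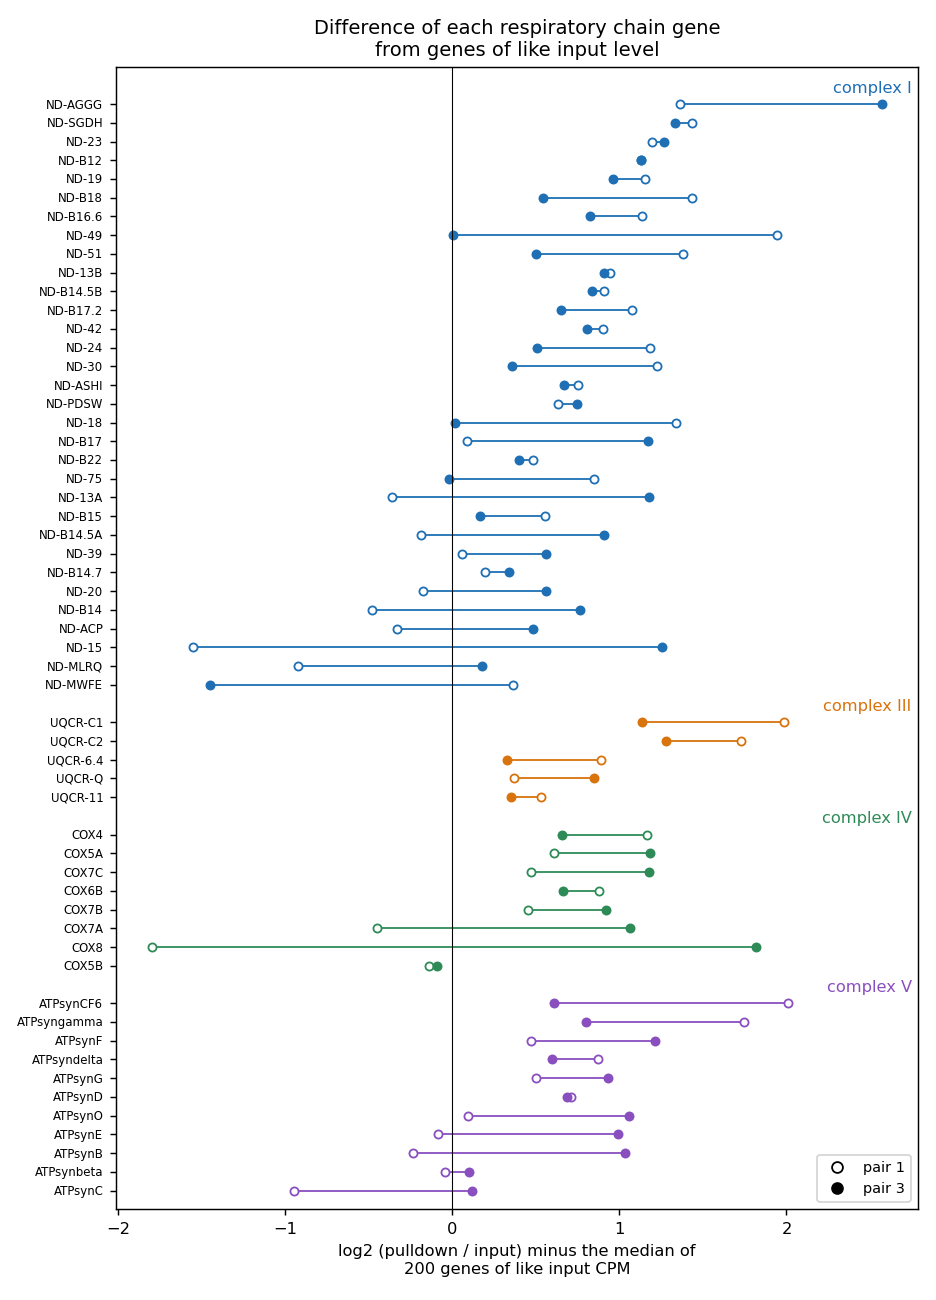
Log2 ratio of pulldown over input minus the median of the 200 genes of like input CPM (horizontal axis) for each of the 56 genes (rows, grouped by complex), with pair 1 as open and pair 3 as filled circles. All 5 complex III genes are right of 0 in both pairs, and COX8 lies on opposite sides.

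The members are short genes, and length went with the ratio in pair 3. Their median exon length was 848.5 bases, against 2186 bases over the 6913 tested genes with an annotated length; GC content (49.1% against 49.0%) and the share of T (23.1% against 23.3%) were alike. Over all these genes, exon length and log2 ratio had a rho of 0.02 in pair 1 and -0.42 in pair 3, and over the 56 members 0.21 and -0.19. When like genes were chosen by exon length instead of input CPM, the median difference was 0.54 in pair 1 and 0.26 in pair 3, with 30 genes above in both pairs and 6 below in both. Chosen by input CPM and exon length together, like genes left 0.38 and 0.31, with 31 above and 3 below in both. In both pairs the difference was thus smaller under both of these choices, which were added after seeing the data, and it stayed above 0. Genes of like exon length themselves had a median ratio of 0.48 in pair 3. There 38 of the 56 members were above them, against 53 with likeness in input CPM.

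The inputs themselves differed by length. Input 3 over input 1, TMM-scaled, had a rho of 0.44 with exon length over the 56 members and 0.29 over all genes. Of the members, 15 were at least 2-fold lower in input 3 than in input 1, ND-AGGG and COX6B at the far end with log2 values of -2.35 and -1.99, and 6 were at least 2-fold higher: ATPsynbeta (2.37), ND-51 (1.45), ND-49 (1.23), UQCR-C2 (1.18), ND-24 (1.03) and ND-39 (1.00). All 6 have over 1000 exon bases. So do some of the 15 that were lower, namely UQCR-11 (1613 bases, -1.50), ND-B18 (1129 bases, -1.36) and ATPsyndelta (3817 bases, -1.32). The median was -0.91 in the 10 members under 700 bases, -0.60 in the 27 between 700 and 1000 bases and 0.20 in the 19 over 1000 bases. Pulldown 3 over pulldown 1 had a rho of 0.11 with exon length over the members. What separates the replicates was not tested. ND-AGGG had 38.16 CPM in input 1 and 9.618 CPM in input 3, and of its 523 windows of 75 bases, 290 occur again elsewhere in the genome, so its counts may depend on how multiply aligned reads were treated.

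**Figure D4:**
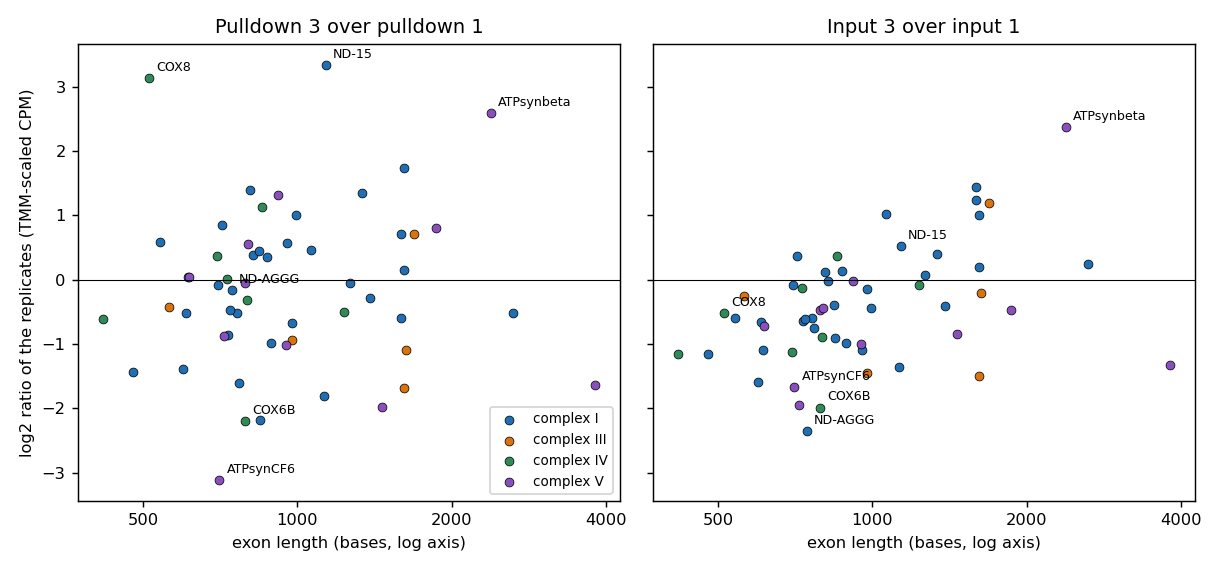
Log2 ratio of replicate 3 over replicate 1 (vertical axis, TMM-scaled CPM) against exon length (horizontal log axis, bases) for the 56 genes, pulldowns left and inputs right; each point is 1 gene coloured by complex. In the inputs the short genes lie mostly below 0 and ATPsynbeta is at 2.37, while COX8 and ND-15 are far above 0 only in the pulldowns.

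Other genes of the same pathway gave a wider range, and none was called by edgeR (0 of 27, smallest adjusted p = 0.9999). In complex II, succinate dehydrogenase, which feeds electrons into the chain beside complex I, SdhB had 0 and 750 reads in the pulldowns against 40 and 1143 in the inputs, and SdhD had 0 and 654 against 169 and 586. SdhA had log2 ratios of -1.13 and 0.01 in pairs 1 and 3 and SdhC had 0.32 and 1.04, and the fitted median of the complex was 0.23, with 3 of 4 above 0. In plain CPM of pair 1, SdhB was at least 3.09-fold lower and SdhD at least 13.1-fold lower in the pulldown, with 3 counts in pulldown 1 as the floor. On the TMM scale, which places pair 1 ratios 0.40 higher in log2, both bounds would be smaller. In pair 3 the pulldown was higher for both, at 118.3 against 90.1 CPM for SdhB and 103.2 against 46.2 CPM for SdhD. Such zeros were seen elsewhere too: of the 5799 tested genes with at least 40 reads in input 1, 478 (8.24%) had none in pulldown 1, and of the 3595 with at least 169 reads, 55 (1.53%) had none. Of the 56 tested members, all with at least 40 reads in input 1, 0 had none, and the lowest count of a tested member was 9, for ND-15 in pulldown 1. The 7 tested subunits outside the symbol rule (blw, the ATP synthase alpha subunit, sun, levy, cype, RFeSP, Cyt-c1 and ox) had a median fitted log2 fold change of 0.32, with 6 of 7 above 0. Enzymes of the citric acid cycle had a fitted median of 0.03 over 9 genes, with 5 above 0 and 4 below. Their pair medians were 0.22 in pair 1 and -0.46 in pair 3. The 3 tested genes of mitochondrial DNA expression, among them TFAM, the packaging factor of the mitochondrial genome, had a fitted median of 0.11. Import and chaperone genes lay lower, with a fitted median of -0.19 over 4 genes and none above 0, Tom40, the import pore, being lowest at -1.15.

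A promoter element known from Drosophila nuclear genes for mitochondrial proteins was looked for in the window between 250 bases before and 50 bases after each gene start. Its core of 8 letters was searched as TTACGTAA, TTATATAA, TTACATAA or TTATGTAA on both strands; the last pair are reverse complements of each other. It was present in 5 of 59 main members (8.47%), all of complex I (5 of 34, 14.7%), and in 0 of the 21 L-suffixed genes, against 5.19% of 13630 protein-coding genes, so that the members are near the background. The 5 matches, from the Ensembl annotation of the dm6 build and in 30 bases centred on the match in capitals, were these, of which ND-SGDH is shown as the complex I gene that was 2-fold higher in both pairs and ND-MNLL as one with no counts:
ND-SGDH, chr3L:12138652-12138681, minus strand: caaaatggattTTATATAAaaatttagatc
ND-30, chr3L:3159721-3159750, minus strand: atatttattttTTATATAAatcatttaagc
ND-42, chr3R:22027554-22027583, plus strand: ttttgtaagtgTTATATAAagtttttaaaa
ND-49, chr4:571520-571549, minus strand: tagcagaaccaTTATGTAAgttcctagtaa
ND-MNLL, chrX:7893866-7893895, minus strand: ttttttttgaaTTACATAAaatattgctac
The matches began 86 bases before the gene start in ND-SGDH and ND-MNLL, 161 before in ND-30, 144 before in ND-42 and 16 after it in ND-49. The 4 of these genes that were tested had fitted log2 fold changes of 1.17 for ND-SGDH, 0.68 for ND-30, 0.66 for ND-42 and 0.68 for ND-49, against a complex I median of 0.63; ND-SGDH had the highest fitted value of the complex. The match is a description of letters, not a measured site. By chromosome, X held 17.9% of the tested members against 18.1% of the genes tested, 3L 23.2% against 19.6% and 3R 19.6% against 24.2%. Chromosome 4 held 2 members, ATPsynbeta and ND-49, 3.57% against 0.839%.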

How the data were processed

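Poly(A) RNA of WT ovaries was counted per gene in 2 pulldown and 2 input libraries. The deposited count files hold raw counts, which the authors made, per the labels, with HISAT2 2.1.0 on dm6 and featureCounts 1.4.6 (a directional kit; the strand setting and the treatment of shared reads are not given in the sources used here). Gene symbols and exon lengths came from Ensembl (16647 of 17023 genes matched), spans also from RefSeq. The 37 genes of the mitochondrial genome had no reads. Counts were fitted with edgeR 4.0.16 (TMM, filterByExpr, group only, R 4.3.3), tested on simulated data, with calls at an adjusted p under 0.05 and 2-fold. Pair ratios are log2 CPM differences with a prior count of 2. DESeq2 1.42.0, other scalings and filters, a replicate block and each library left out were alternatives. Samples with the same number deviated together (r = 0.41), but nothing in the labels says that the number marks a shared animal or day. Named genes were, per complex, the 2 with the highest input CPM per kilobase and those with the highest and lowest fold change, the genes 2-fold changed one way in both pairs, and the paralogues with their counterparts. Members and lists were chosen with earlier results of these data known. No column of per-sample values was left unused.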

Additional observations from a re-analysis of the deposited data

How the results depend on the processing

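No member was called under any alternative run (no fold threshold, each scaling, filter, tool and block, and each library left out). Over all genes, 2 were called without a filter and 2 by DESeq2, against 0 otherwise; leaving out 1 library gave between 0 and 479 calls, 479 without pulldown 3 and 26 without pulldown 1, in fits where the lone library is assumed to vary like the other group. With the replicate block 0 genes were called, the members' median was 0.49 and no call changed. In that edgeR fit, 293 of 7085 genes and 3 of 56 members (ND-SGDH, UQCR-C1, UQCR-C2) had an unadjusted p under 0.05. The members were thus near the share of all genes. The members' median fitted log2 fold change was 0.34 on total counts and between 0.37 (without input 3) and 0.78 (without input 1) with 1 library left out. In each fit with 1 library left out, that median stayed above the median of all genes. The distance was 0.62 in the main fit, and ran between 0.27 without input 3 and 1.13 without pulldown 3. The pair 1 median was -0.026 on total counts. The median difference from like genes was 0.41 in pair 1 with likeness in the mean of all 4 libraries, 0.40 in pair 1 and 0.55 in pair 3 with input CPM per kilobase, and, in alternatives added after seeing the data, 0.26 in pair 3 with exon length and 0.38 and 0.31 with both. At least 2-fold higher in both pairs was 1 member on total counts, and 11 members were at least 1.5-fold higher on the TMM scale. The share of all genes was not computed at these settings, so these counts have no background. Without its 10 most abundant genes, the members' share was 1.77% and 1.79% in pulldowns 1 and 3, against 1.39% and 1.32% in inputs 1 and 3. Of 150 alternatives for the 15 named members, 131 kept the sign and 19 did not, and the cause was not tested. ND-ACP was 0.029 with upper-quartile scaling, 0.0049 by DESeq2 and between -0.31 and 0.14 with a library left out; ATPsynbeta was -0.044 on total counts, -0.010 without a filter, -0.035 with the block and between -1.78 and 1.66; UQCR-11 was -0.042 on total counts and between -0.81 and 1.14. With a library left out, ND-MWFE lay between -2.06 and 0.20, UQCR-Q between -0.26 and 1.15, COX6B between -0.94 and 1.80, ATPsynC between -0.76 and 0.039 and ATPsynCF6 between -0.74 (without pulldown 1) and 2.54. Without a change of sign, COX7C lay between 0.022 (without pulldown 3) and 1.16, COX5A between 0.20 (without input 3) and 1.05, ND-SGDH between 0.58 and 1.69, UQCR-C1 between 0.74 and 1.84, UQCR-C2 between 0.79 and 1.99, COX5B between -0.42 and -0.31 and ND-MLRQ between -0.90 and -0.26. Depth limits pulldown 1 most.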
